A study of Danio rerio with 8 samples.

Results

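The genes for the proteins of the cytoplasmic ribosome were examined in zebrafish clutches that were wild type or homozygous for the hu2787 allele of *fmr1*. They were taken by symbol, as genes of the count table whose symbol begins with rpl or rps and a digit, or with rplp, or is rpsa. Of the 32057 genes in the table, 96 symbols fitted this pattern, and 11 of them were rps6k kinases and were left out, leaving 85 genes. All 85 had more than 1 count in at least 4 libraries, among 23567 such genes. *rpl27a*, *rpl37a* and *rpl41* were not found by symbol and 1 gene with different names in different sources was left out, so the shares of counts below are those of these 85 genes. The 85 genes comprised 43 named for the large subunit, 38 named for the small subunit and 4 for the stalk, and lay on all 25 chromosomes. *rps19bp1* and *rpl7l1* carry such symbols without being structural ribosomal proteins by name, since the first is named as a binding partner of RPS19 and the second as a relative of RPL7.

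Whole larvae were pooled by clutch at 2 days post-fertilization (dpf), and polyA+ RNA of each clutch was sequenced with strand-specific libraries. The mutant group was 4 clutches (S2, S4, S5 and S8) homozygous for hu2787, a nonsense allele of *fmr1*, which encodes the RNA-binding protein FMRP. The wild type group was 4 clutches (A, D, G and L) without this allele. No clutches shared parents, so the *p*-values set the genotype difference against the spread between clutches of different parents. All parents descended from the same imported population, so the clutches are not unrelated families. The recessive w2 allele of *mitfa* was present in some clutches. The labels name no treatment in either genotype.

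A ribosome is made of a small subunit, which holds the mRNA and the decoding site, and a large subunit, which forms peptide bonds and carries a flexible stalk that recruits translation factors. Nearly every ribosomal protein is present in a single copy per ribosome, and their mRNAs are known in vertebrates to share a 5' terminal oligopyrimidine (TOP) tract through which their translation follows nutrient signalling. These mRNAs are among the most abundant in growing embryos, and the loss of individual ribosomal proteins in zebrafish and human is known to activate p53.

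The libraries held 29296538 to 33205738 counts. Levels are given as CPM (counts scaled to a common library size) after TMM normalisation, a scaling of library sizes on the bulk of genes. The TMM factors ranged from 0.891 to 1.12. *fmr1* averaged 21.4 ± 2.02 CPM (SD, *n* = 4 clutches) in mutants and 49.9 ± 3.13 in wild types, and no mutant clutch reached a wild type one. Markers of muscle, skin, blood, neurons, lens and heart were detected in every clutch, while *fabp10a*, a liver marker, stayed at or under 7.59 CPM.

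The ribosomal protein genes held a large share of every library, and the genotypes overlapped in it. Their share of the library counts was 8.28%, 8.11%, 10.9% and 9.15% in S2, S4, S5 and S8, and 10.4%, 9.29%, 9.26% and 10.3% in A, D, G and L. The lowest shares were those of mutant clutches S2 and S4, and the highest of all 8 was that of mutant clutch S5. The mean was 9.12% ± 1.29 (SD, *n* = 4) in mutants and 9.81% ± 0.624 in wild types, a difference of -0.69 percentage points. Without S5 the difference was -1.29 percentage points, without S4 -0.35, and without S2 -0.41. The difference was smaller than the SD among the mutant clutches and close to that among the wild types. The TMM factors ran the opposite way to the share, at 1.12 in S2, 1.11 in S4 and 0.891 in S5. With the library sizes multiplied by these factors as the denominator, the difference was -1.23 percentage points. In whole larvae, fewer cells rich in these mRNAs and less of these mRNAs per cell cannot be told apart.

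**Figure D1:**
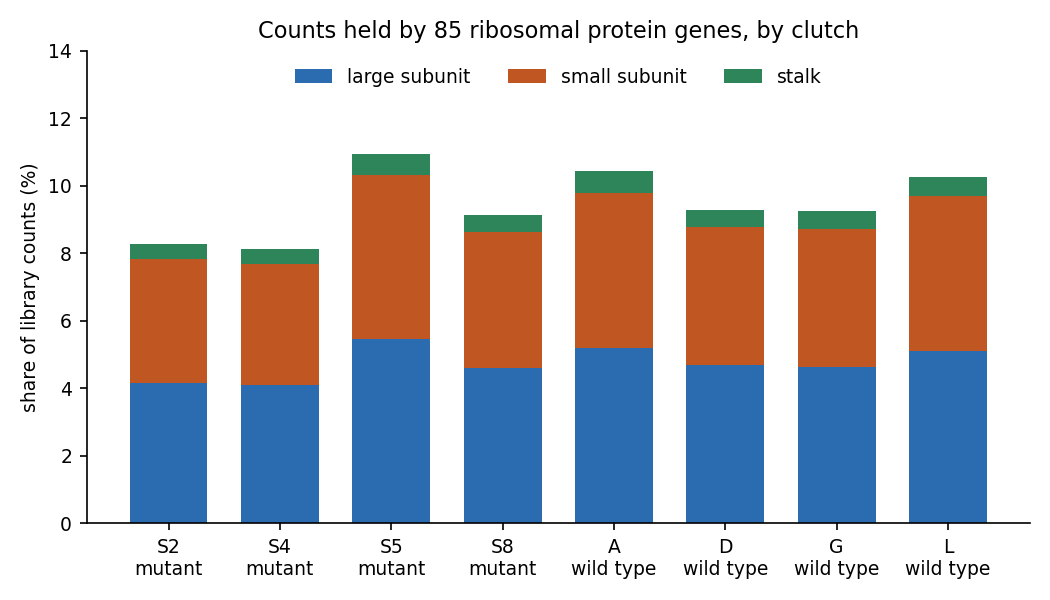
Share of each library's counts (%) held by the 85 ribosomal protein genes, by clutch, with the bar divided into genes of the large subunit, the small subunit and the stalk. Mutant clutches S2 (8.28%) and S4 (8.11%) are lowest and mutant clutch S5 (10.9%) is highest, with the wild type clutches between 9.26% and 10.4%.

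The subunits moved together. Genes of the large subunit, with the stalk, held 1.26 ± 0.0139 counts (SD, *n* = 4) per count of the small subunit in mutants and 1.26 ± 0.0155 in wild types. Over the 8 clutches this ratio lay between 1.24 and 1.28, while the share of all these genes differed by 1.35-fold between the highest and the lowest clutch. The median over genes of the deviation in log2 CPM from each gene's mean over clutches was -0.34 in S2 for both the large subunit and the family as a whole, and -0.35 for the small subunit. The corresponding values in S5 were 0.38 for the large subunit, 0.40 for the small subunit and 0.37 for the stalk. Of the 85 genes, 70 were highest in S5, against 14.5% of all genes tested, and 79 were lowest in S2 or S4, against 27.8%.

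**Figure D2:**
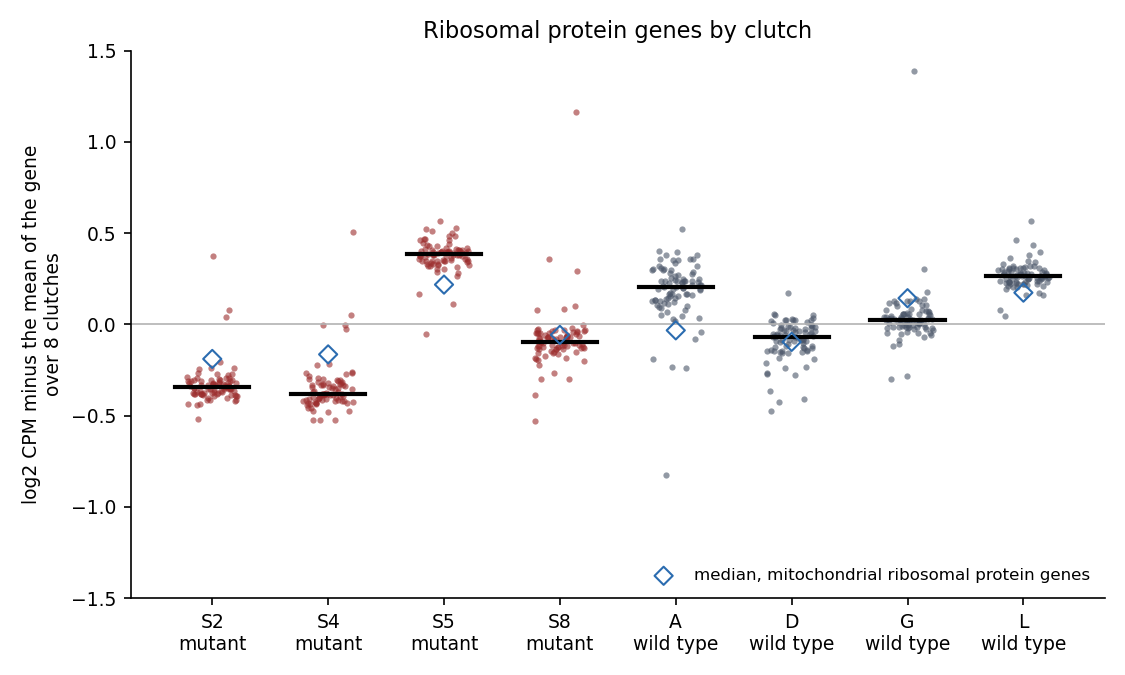
Deviation of log2 CPM from the gene's own mean over 8 clutches, with a point for each of 85 ribosomal protein genes, a bar at their median, and an open diamond at the median of 75 mitochondrial ribosomal protein genes. The points of a clutch lie close together, low in S2 and S4 and high in S5, A and L, and 4 points lie outside the axis range.

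Most members followed the family median closely over the 8 clutches. Pearson's r with the median of the other members exceeded 0.9 for 74 of 85 genes, against 1.32% of all genes tested with the family median, and the median r was 0.97. These correlations are a description over 8 clutches, whose values share the library and its scaling. The median SD of log2 CPM within a genotype was 0.28 for members, and 0.07 for their log2 ratio to the family median. The members that followed least were *rps8b* (r = -0.38), *rps11b* (0.19), *rps27l* (0.31) and *rpl26* (0.47), all of which were low in level.

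Between genotypes no ribosomal protein gene was DE at an FDR (false discovery rate) under 0.05 by edgeR's quasi-likelihood test and Benjamini-Hochberg adjustment over 23567 genes. The lowest FDR among members was 0.533, and 0.0127% of all genes passed this threshold. No member had an unadjusted *p*-value under 0.05 either, against 9.41% of all genes (2218 genes), and no member separated the genotypes in log2 CPM over the 8 clutches, against 4.28% of all genes. The other tools gave 0 members past the FDR, and 0 to 2 with an unadjusted *p* under 0.05, with no share of all genes given beside it. The fitted values of the members lay mostly on the same side, below 0 for 81 and above 0 for 4. Of the 23567 genes tested, 11063 lay below 0 and 12504 above. The members moved together over the clutches, so their signs are not independent of each other. The median log2 fold change (mutant minus wild type) was -0.19 over the members and 0.02 over all genes tested. This corresponds to a level 12.5% lower in mutants at the median, with a median standard error (SE) of 0.19 per member on the log2 scale.

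The value for the family depended on mutant clutch S5. Without S5, the median log2 fold change was -0.38, 83 members lay below 0, and 66 of 85 had an unadjusted *p* under 0.05, all lower in mutants, against 11.4% of all genes tested that were called lower by the same rule. The lowest FDR among members was then 0.0941. Without S2 or without S4 the median was -0.10, and no member had an unadjusted *p* under 0.05. Of all genes tested, 2.96% were called lower without S2 and 3.07% without S4. Without wild type clutch L the median was -0.13 and *rpl26* alone had an unadjusted *p* under 0.05 in the edgeR fit. It was higher in mutants, as were 1325 of 23567 genes tested by the same rule. With S5 set aside after its values were seen, 49 members had S2, S4 and S8 all below every wild type clutch, against 12% of all genes tested. In S5, 70 members were above every wild type clutch, against 21.5% of all genes tested. S5 bears its genotype in the labels, and its *fmr1* level (22.8 CPM) was among those of the other mutants (19.5 to 23.4 CPM).

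**Figure D3:**
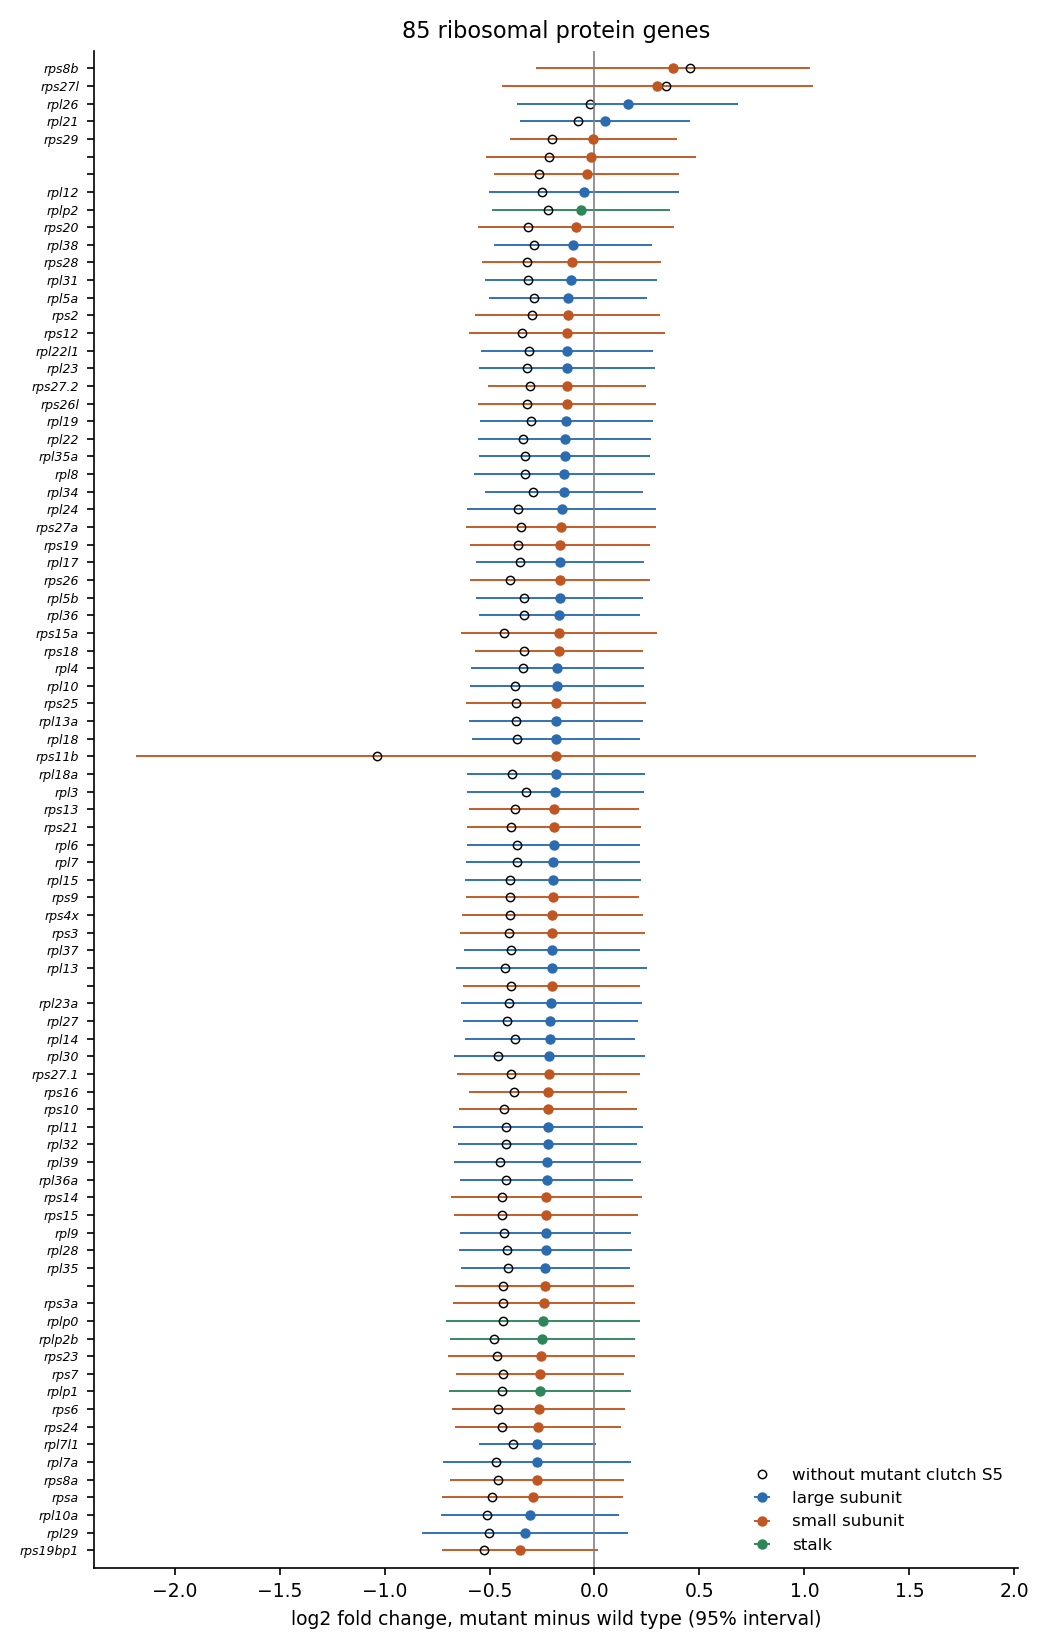
Log2 fold change (mutant minus wild type) of the 85 genes with its 95% interval (edgeR quasi-likelihood fit), coloured by the subunit in the symbol, and the value without mutant clutch S5 as an open circle. Every interval includes 0, 81 values lie below 0, and 83 of 85 lie below 0 without S5.

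The largest negative fold changes with all clutches were those of *rps19bp1*, *rpl29*, *rpl10a*, *rpsa*, *rps8a* and *rpl7a*. *rpl10a*, a component of the large subunit, stood at 1018, 945, 1656 and 1113 CPM in S2, S4, S5 and S8 and at 1662, 1318, 1352 and 1524 CPM in A, D, G and L. S2, S4 and S8 were below every wild type clutch, and S5 was second to A. Its log2 fold change was -0.31 ± 0.19 (SE, edgeR FDR = 0.603), with a 95% interval from -0.73 to 0.12. *rpsa*, the component of the small subunit that also serves as a laminin receptor precursor, read 1767, 1733, 2900 and 2045 CPM in the mutants and 2841, 2346, 2327 and 2848 CPM in the wild types. The pattern was the same, with S5 highest of all 8, and the log2 fold change was -0.30 ± 0.19 (SE, edgeR FDR = 0.619).

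The 2 members with an unadjusted *p* under 0.1 were those that are not structural ribosomal proteins by name. *rpl7l1*, a relative of *rpl7* linked in human and mouse to ribosome assembly, stood at 44.4, 44.1, 62.9 and 53.5 CPM in the mutants and at 61.9, 63.0, 63.4 and 59.3 CPM in the wild types. S5 lay within the wild type range and the other mutants below it. The log2 fold change was -0.27 ± 0.13 (SE, edgeR FDR = 0.533). *rps19bp1* averaged 15.1 ± 3.49 CPM (SD, *n* = 4) in mutants and 19.3 ± 2.47 in wild types, with a log2 fold change of -0.35 ± 0.17 (SE, edgeR FDR = 0.534). S5 was again within the wild type range. Without these genes the median log2 fold change of the other 83 was -0.19.

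Components of the large subunit with known roles lay near the family median. *rpl5a*, *rpl5b* and *rpl11* encode the proteins of the 5S particle, which in mammals binds Mdm2 when ribosome assembly fails. *rpl11* averaged 1085 ± 304 CPM (SD, *n* = 4) in mutants and 1266 ± 195 in wild types, and its log2 fold change was -0.22 ± 0.20 (SE). The log2 fold changes of *rpl5a* and *rpl5b* were -0.13 ± 0.17 and -0.17 ± 0.18 (SE). *rpl3*, which lies at the peptidyl transferase centre, had -0.19 ± 0.19, *rpl10*, which is added late in assembly, -0.18 ± 0.19, and *rpl38*, known in mouse for its effect on Hox mRNA translation, -0.10 ± 0.17 (SE). None of these passed the test (edgeR FDR from 0.733 to 0.864).

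The stalk genes *rplp0*, *rplp1*, *rplp2* and *rplp2b* had log2 fold changes of -0.25, -0.26, -0.06 and -0.25. *rplp0*, the base of the stalk, read 1991, 2008, 3372 and 2452 CPM in the mutants and 3419, 2385, 2657 and 3188 CPM in the wild types, with A highest and S5 next. In the small subunit, *rps6*, the protein phosphorylated by the rps6k kinases, had -0.27 ± 0.19 (SE). *rps19* and *rps14*, whose loss in human is tied to Diamond-Blackfan anaemia and to the 5q- syndrome, had -0.16 ± 0.19 and -0.23 ± 0.21 (SE). *rps7* had -0.26 ± 0.18 and *rps20* -0.09 ± 0.21 (SE). All of these intervals included 0.

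Relative to the family median, the members differed little by genotype. When the libraries were scaled to an equal median of the ribosomal protein genes, a scaling chosen after the clutches had been seen to move together, 71 of 85 members had a log2 fold change within 0.1 of 0. None had an unadjusted *p* under 0.05, against 8.32% of all genes tested. The scaling centres the members near 0 by construction, so these counts describe only their spread around the family median. On this scale the median of all genes was 0.25, so the 8.32% is not a like comparison. *rpl21*, a component of the large subunit, had the lowest *p* (0.0657, edgeR quasi-likelihood test) with a log2 fold change of 0.26. Its levels were 917, 1083, 1407 and 1074 CPM in the mutants and 1107, 810, 1114 and 1295 CPM in the wild types. Ratios to the family median did not overlap between genotypes for 3 of 85 members, against 1.93% of all genes tested. This share is not a like comparison either, since it rests on ratios to the same median.

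Levels per gene length varied widely among the members. Counts are lower for a short gene at the same number of molecules, so levels of different genes are compared as CPM per kilobase (kb) of gene length in the table, which takes all exons of a gene together. Among the highest means over 8 clutches were those of *rps20* (3143 CPM per kb), *rps12* (2738), *rps2* (2686), *rplp0* (2288) and *rps15* (2267). *rps20* ranged from 2370 to 4399 over clutches and *rps12* from 2150 to 3696, and *rps20* was the higher within each of the 8 clutches. *rps12* was above *rps2* in 5 of 8 clutches, and *rplp0* above *rps15* in 5 of 8. The lowest were *rps8b* (1.66), *rps19bp1* (8.16), *rps11b* (14), *rpl7l1* (30.4), *rps27l* (43.1) and *rpl26* (43.8). In CPM, 48 members averaged at least 1000 and 6 averaged under 100. Reads that fit more than 1 place in the genome were not counted, so members with close copies or pseudogenes may be understated.

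**Figure D4:**
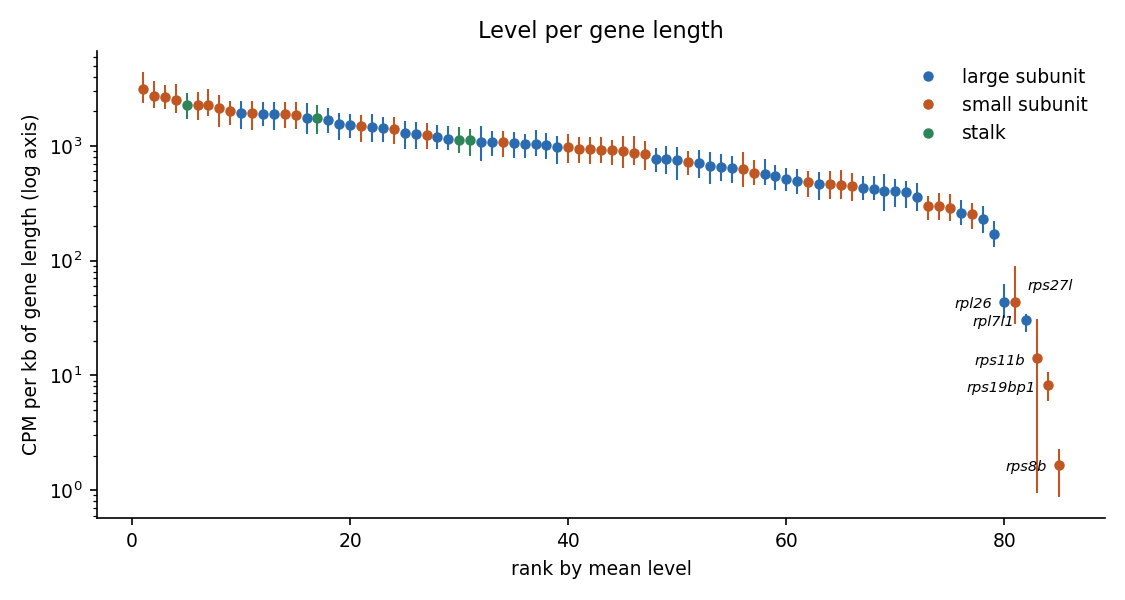
Mean level of each of the 85 genes over 8 clutches in CPM per kb of gene length (log axis), ranked, with lines from the lowest to the highest clutch. The 6 lowest, from *rpl26* (43.8) to *rps8b* (1.66), are named, and *rps11b* has the widest range.

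Paralogue families differed in how evenly their copies shared the level per kb, and the balance was similar across clutches in most families. *rpl5a* held 49.9% to 54.5% of the summed level per kb of *rpl5a* and *rpl5b*. *rps26* held 63.1% to 69.4% of its pair with *rps26l* and *rplp2b* 55.5% to 64.9% of its pair with *rplp2*. *rps8a* held 99.66% or more of its pair with *rps8b*. *rpl22l1*, which is known in mouse to be repressed by Rpl22, held 52.4% to 62.8% of its pair with *rpl22*, lowest in mutant clutch S8 and highest in mutant clutch S4. These shares rest on reads that differ between copies and on the gene lengths used. Before division by length, *rps26* read 281 to 535 CPM over clutches and *rps26l* 502 to 867 CPM. *rpl22* read 486 to 824 CPM and *rpl22l1* 136 to 233 CPM. Which copy was higher in these pairs therefore depended on the length used.

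Within the family of *rps27*, only *rps27l* stood out in clutch S8. *rps27l*, a p53 target in human, held 1.37% to 2.06% of the level per kb of *rps27.1*, *rps27.2* and *rps27l* in the other clutches and 4.46% in S8. *rps27l* (Chromosome 25: 34641536 to 34650374, GRCz11) read 22.1, 22.8, 34.2 and 71.1 CPM in S2, S4, S5 and S8 and 26.8, 31.0, 25.7 and 38.4 CPM in A, D, G and L. Apart from S8 the genotypes overlapped, and the log2 fold change was 0.30 ± 0.34 (SE, edgeR FDR = 0.786), and -0.20 without S8. Of 13 p53 target genes, 11 were highest in S8 as well, where 16.0% of all genes tested were highest. *mdm2*, the ubiquitin ligase that limits p53, was at 90.5 CPM in S8 and at most 43.0 CPM elsewhere. *rps27l* was the only member of 85 whose highest clutch was S8, where the family deviation was -0.10. The part of the p53 target genes in the *rps27l* level was not tested.

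*rps11b* (Chromosome 8: 26702003 to 26703235) varied most of all members, with a pooled SD of 2.10 within genotypes on the log2 scale. It read 6.15, 0.546, 18.1 and 6.08 CPM in the mutants and 4.79, 16.9, 12.5 and 0.566 CPM in the wild types. S4 and L were low at 18 and 15 counts, and D was high at 588 counts, so that low and high clutches occurred in both genotypes. Its log2 fold change was -0.18 ± 0.91 (SE), -1.03 without S5 and 0.37 without D. *rps8b*, at 1.09 to 2.85 CPM, had the largest positive fitted log2 fold change, 0.37 ± 0.30 (SE, edgeR FDR = 0.688), and rested on 34 to 94 counts per clutch.

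2 members lie on Chromosome 14, which also carries *fmr1*. *rpl39*, a small protein at the exit tunnel (33331773 to 33348221), had a log2 fold change of -0.23 ± 0.20 (SE, edgeR FDR = 0.724). *rpl26* (52563794 to 52568371), a component of the large subunit, read 25.7, 25.8, 36.9 and 20.3 CPM in the mutants and 21.2, 18.7, 20.5 and 37.0 CPM in the wild types. S5 and L were high and the rest lay between 18.7 and 25.8 CPM, with S2 and S4 above A, D and G. The log2 fold change was 0.16 ± 0.24 (SE, edgeR FDR = 0.844), -0.02 without S5 and 0.43 without L.

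**Figure D5:**
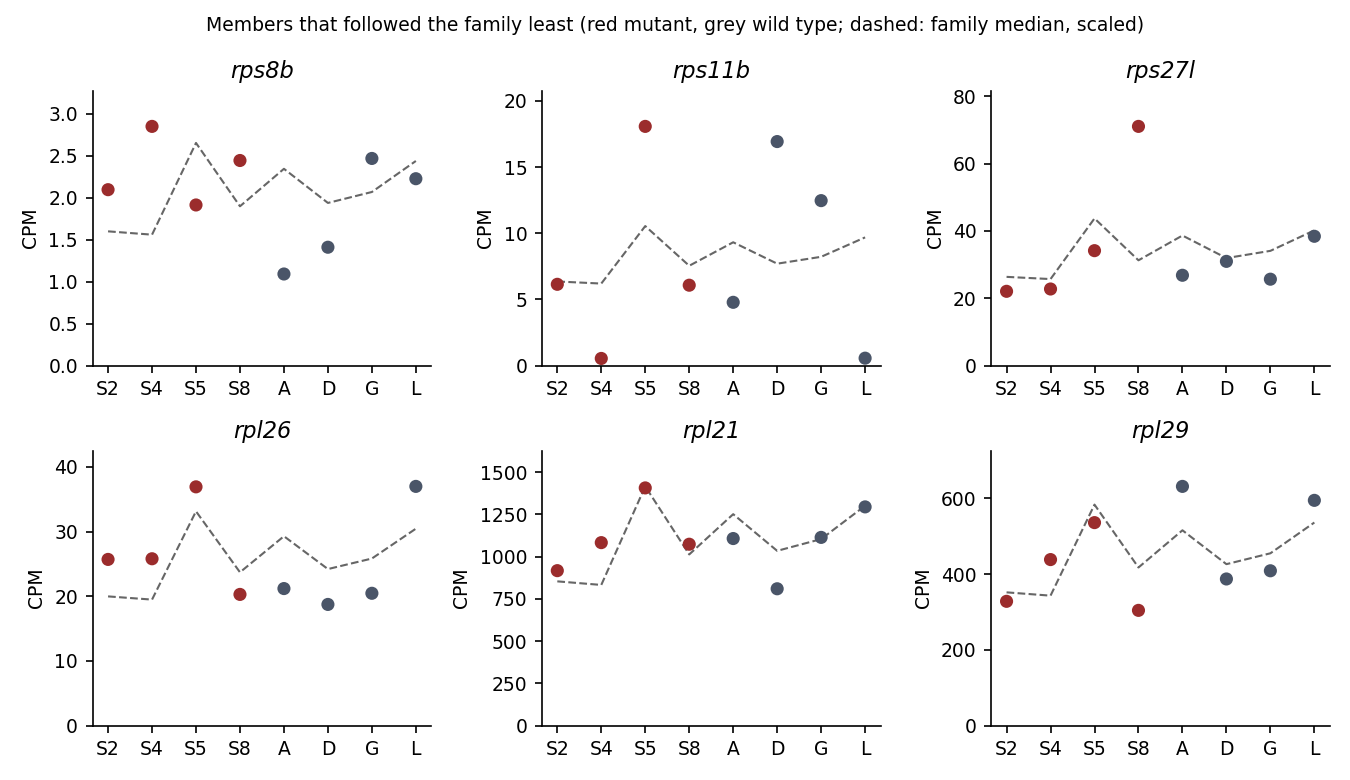
CPM by clutch for the 6 members with the lowest correlation with the family median, in mutant (red) and wild type (grey) clutches, and the family median scaled to each gene's mean (dashed). *rps27l* is high in S8 (71.1 CPM), *rps11b* is near 0 in S4 and L, and *rps8b* is not high in S5.

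Genes for other parts of the ribosome carry other symbols. *fau*, a ubiquitin-like fusion with a small subunit protein, read 664, 630, 1131 and 783 CPM in the mutants and 936, 828, 895 and 1063 CPM in the wild types, with S5 highest and S2 and S4 lowest. It had a log2 fold change of -0.21 ± 0.19 (SE) and *rack1*, a scaffold on the small subunit, -0.23 ± 0.20 (SE). *faub* was low, at 4.81 to 9.04 CPM, and had 0.39 ± 0.21 (SE). Among 23 other genes with TOP mRNAs the median log2 fold change was -0.15, with 2 lower at an unadjusted *p* under 0.05, against 5.19% of all genes tested, and none higher. Without S5 the count lower was 11 (47.8%), against 11.4% of all genes tested, and the median was -0.28. Without A, D, S2, S4 or S8 the count was 1 (4.35%), against 2.30% to 3.07% of all genes tested. The 2 genes with all clutches were *npm1a* (-0.49 ± 0.14, SE, edgeR FDR = 0.528) and *npm1b* (-0.35 ± 0.14, FDR = 0.528), which encode nucleophosmins of the nucleolus. *npm1b* and *rack1* lie on Chromosome 14, which also carries *fmr1*. Genes on this chromosome also occur among the other TOP mRNAs, the p53 target genes, and the biogenesis factors and proliferation genes below. The part of this location in their levels and in the counts was not tested.

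Genes that build ribosomes and genes of the cell cycle were described beside the members. Of 103 ribosome biogenesis factors, 100 had a fitted value below 0, 37 were lower at an unadjusted *p* under 0.05 and none was higher, where 5.19% of all genes tested were called lower. Of all 23567 genes tested, 11063 had a fitted value below 0. The count of biogenesis factors called lower was 65 without S5, 40 without L, 33 without S8 and 29 without G. It was 23 without D and 21 without A, S2 or S4. Of all genes tested, 11.4% were called lower without S5, 5.69% without L, 4.43% without G and 2.48% without S8. The share was 2.77% without D, 2.30% without A, 2.96% without S2 and 3.07% without S4. The median log2 fold change of the biogenesis factors was -0.24. Their medians by clutch were -0.24 in both S2 and S4 and 0.06 in S5. Of 27 proliferation genes, 26 had a fitted value below 0 and 14 were lower at an unadjusted *p* under 0.05. Over all genes tested, 5.19% were called lower with all clutches. The median of the proliferation genes was -0.40, with S5 at 0.31 and S8 at -0.55. Without S5 the count of proliferation genes lower was 24 and the median -0.63. The count was 6 without A, 7 without S8, 8 without S2 or S4, 9 without D, 12 without G and 15 without L. The shares of all genes called lower in these fits are those given above. No biogenesis factor or proliferation gene passed an FDR of 0.05. Among 75 mitochondrial ribosomal protein genes, which belong to another ribosome, the median was -0.09. With all clutches 1 was lower at an unadjusted *p* under 0.05, against 5.19% of all genes tested. Without S5 the median was -0.18 and 12 (16.0%) were lower, against 11.4% of all genes tested. Without D 3 were lower and without S8 1, against 2.77% and 2.48% of all genes tested. Without A, G, L, S2 or S4 none was lower. Of 11 cell type markers, 5 had a fitted value above 0 and 6 below. The liver marker *fabp10a* was higher at an unadjusted *p* under 0.05, at 2.79, 4.88, 2.43 and 7.59 CPM in the mutants and 1.25, 0.921, 1.66 and 3.10 CPM in the wild types (log2 fold change 1.36 ± 0.45, SE, edgeR FDR = 0.528). The hatching gland marker *he1.1* was lower at an unadjusted *p* under 0.05, at 92.4, 79.6, 248 and 47.5 CPM in the mutants and 611, 306, 179 and 238 CPM in the wild types (log2 fold change -1.51 ± 0.51, SE, edgeR FDR = 0.528). The part of proliferation or of developmental timing in the levels of the ribosomal protein genes was not tested.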

How the data were processed

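RNA-seq was measured in 8 clutches, 4 of each genotype. The authors trimmed reads with AdapterRemoval, used STAR 2.5.3a for alignment to GRCz11 (Ensembl annotation) and featureCounts 1.5.2 for counting, and required a unique exonic position and a mapping quality of 10 or more. They deposited raw counts, neither normalised nor filtered.

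Symbols came from a name table (28988 of 32057 genes). For 83 of 85 members a zebrafish symbol was matched by chromosome and neighbouring genes in a RefSeq annotation of another assembly, of which no coordinates are used. The others keep the symbol of the name table. The filter of the study, over 1 count in 4 or more libraries, was applied and genes were fitted in R 4.3.3 with TMM and the quasi-likelihood test of edgeR 4.0.16, without covariates, and adjusted over all 23567 genes. The paper reports fewer genes left by a filter in these words, so the genes tested here are not the study's set. Log2 CPM used a prior count of 2. The fit was tested on simulated data.

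Members and lists were chosen with earlier results of these data known. Genes were named when they passed the FDR, when *p* was under 0.05 with genotypes apart, when among the 6 largest or smallest in fold change, level per kb or spread, on Chromosome 14, in a paralogue family, or known for a role. All genes outside the members, except *fmr1*, *fau*, *faub* and *rack1*, were singled out after their values were seen. Alternatives used DESeq2 1.42.0, limma 3.58.1, sva 3.50.0, other scalings, filters and leaving out clutches. Some genes are not reported here by name, though they count in the totals. No sequences are given.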

Additional observations from a re-analysis of the deposited data

Results flagged for a closer look

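In groups of 4 clutches, the highest or lowest clutch was compared with its nearest neighbour, and called apart when this gap, over the group's range, exceeded Dixon's 95% critical value. Chance calls about 1 in 20 groups apart, and 7 of 172 groups tested were called. Among the mutants, *rpl13* was high in S5 at 1518 CPM and *rps12* was high in S5 at 2321 CPM. Among the wild types, *rpl26* was high in L at 37.0 CPM. Of the markers, the skin gene *krt4* was high in S5 at 20637 CPM among the mutants, and the lens gene *cryaa* was low in S8 at 9.26 CPM. The p53 target genes *phlda3* and *bbc3* were high in S8 at 18.6 and 12.8 CPM.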

How the results depend on the processing

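No member passed an FDR of 0.05 under any alternative run. The count of members with an unadjusted *p* under 0.05, 0 in the reported fit, became 2 with limma-voom, 1 with offsets by gene length, 2 with a factor for clutches numbered 1 and 2 against 3 and 4, and 2 with 1 surrogate variable, in each case *rpl7l1* or *rps19bp1* or both. With the replicate number as a block it became 1 (*rpl7l1*). The shares of all genes called in these fits are not given, so these counts are not set against a background. Deviations of same-numbered clutches correlated at 0.25, -0.21, -0.01 and 0.18 over all genes, so the numbers were not taken to pair clutches. Leaving out 1 clutch gave counts from 0 to 66, 66 without S5 and 1 without L, and medians from -0.38 to -0.10. Over all genes tested, 2.30% to 11.4% were called lower when a clutch was left out. Relative to the family median, leaving out a clutch gave counts of members from 0 to 2, again without a share of all genes beside them. The median log2 fold change of members stayed below 0 under all 24 alternatives, at -0.11 with library totals only (all genes 0.12) and -0.22 to -0.11 over alternatives with all clutches. The share difference was -0.77 percentage points with a smaller denominator, -1.23 with effective library sizes and -1.29 to -0.35 with a clutch left out. Of 1196 values for 52 named genes, 1124 kept direction and call. With library totals only, *rplp2* became 0.024 and *rps29* 0.076. *rps29* became 0.024 with upper quartile scaling, 0.020 with the filter on CPM, 0.0061 with DESeq2 and with RLE, and 0.0017 with filterByExpr. *rps11b* became 0.10 with the replicate block. With a clutch left out, 74 to 83 of the 85 members lay below 0. Among the 52 named genes, log2 fold changes crossed 0 for 7 when a clutch was left out. They lay within -1.03 to 0.37 for *rps11b*, -0.32 to 0.017 for *rps20*, -0.22 to 0.046 for *rplp2* and -0.20 to 0.087 for *rps29*. The others lay within -0.078 to 0.15 for *rpl21*, -0.023 to 0.43 for *rpl26* and -0.20 to 0.49 for *rps27l*. The cause was not tested. With 4 clutches per genotype and a median SE of 0.19, differences of the size of the family median could not be resolved for single members.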
